A study of Mus musculus with 12 samples.

Results

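The 8 genes described here encode cytosolic proteins that sense RNA, signal its presence or edit it, together with a sensor of Z-form nucleic acid. They are Ddx58 (RIG-I), Ifih1 (MDA5), Dhx58 (LGP2), Ddx60, Mavs, Eif2ak2 (PKR), Zbp1 and Adar. They were taken by symbol from a deposited table of 23472 genes. All 8 were present and all 8 passed the filter on low counts, which kept 13184 genes. The RNA, described as selected by its poly-A tail, came from bone marrow of C57BL/6 mice. The cells were long-term haematopoietic stem cells (LT-HSCs), which renew themselves and give rise to all blood lineages. By their labels 6 libraries were wt (cre-negative animals) and 6 were Jak1 KO (cre-positive animals, called KO-labelled below). Both genotypes, wt included, had received poly(I:C) to induce the deletion, in 4 doses given 4 to 6 weeks before the marrow was taken. Poly(I:C) is a synthetic double-stranded RNA that is itself a ligand of several of these sensors. In each genotype 3 libraries carried VD names (replicates 1 to 3) and 3 carried ZL names (replicates 4 to 6). The sources used here do not give the meaning of these names, the age of the animals, the sorting gate, the promoter that drives cre, the exons removed or any pooling of animals. The VD column names begin with MXminus in wt and with MXplus in KO-labelled libraries, and do not spell out MX. Cre status and Jak1 genotype cannot be told apart, since they coincide. Separate animals are not stated for the libraries of a group, so that p-values cover the spread between libraries, part of which may be technical.

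RIG-I and MDA5 are RNA helicases that bind double-stranded RNA and then engage the mitochondrial adaptor MAVS, which recruits kinases that activate interferon transcription factors. Interferon receptors signal through JAK1 and TYK2 to transcription factors, STAT2 and IRF9 among them, that bind interferon-stimulated response elements (ISREs) in target genes. Many sensors are such targets themselves, so that interferon raises the abundance of the proteins that detect RNA. PKR halts translation when it binds double-stranded RNA, ZBP1 triggers cell death through RIPK3, and ADAR converts adenosine to inosine in double-stranded RNA and so limits its detection.

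Total counts ranged from 9824802 to 28261886 in wt libraries and from 8989965 to 28701855 in KO-labelled libraries. Rn45s, the gene of a ribosomal RNA precursor, made up very unlike parts of these totals. Its share lay between 0.511% (wt 6) and 0.950% (KO 5) where names were of the ZL kind. Where they were of the VD kind it was far larger, from 14.8% (KO 3) to 22.6% (KO 1). The cause was not tested, and a fit with Rn45s left out is given below. All 12 markers of LT-HSCs were detected in every library, from Hoxb5 at 11.8 to 31.8 CPM to Kit at 197 to 1774 CPM. Their sum was 2947 to 5355 CPM in wt and 2531 to 5332 in KO-labelled libraries. The lowest sum, below every wt library, was that of KO-labelled replicate 4. Jak1 stood at 373 ± 45.3 CPM in wt and 422 ± 160.4 in KO-labelled libraries (SD, n = 6 each), and a count over the whole gene does not check a deletion of some exons. Libraries of the ZL set stood apart from each other. Library KO 4 (KO-labelled replicate 4; libraries are named this way below) was given the smallest quality weight by limma-voom (0.165), and its log2 CPM relative to the other ZL libraries fell with exon length (Spearman -0.52 across genes). The opposite trend was present in wt 6 (0.39) and in library KO 6 (0.45), and more weakly in wt 4 (0.22). Libraries wt 5 (-0.27) and KO 5 (-0.17) leaned the same way as KO 4, also more weakly. VD libraries lay between -0.10 and 0.12. Of the 7 lists of markers of other blood cells, 5 had a summed level that was highest in KO 4 among KO-labelled libraries (macrophage, dendritic, B, T and NK, and megakaryocyte), and those of neutrophils and erythroid cells did not. For 9 macrophage and monocyte markers in the table the sum was 992 CPM there, against 256 to 479 in the other 5 and 242 to 532 in wt. For 8 T and NK cell markers it was 195.1 CPM against at most 56.5 in the other 5 and 36.4 to 92.2 in wt, and 5 of the 8 (Cd3e, Cd3d, Cd3g, Cd8a and Ncr1) stayed under 1 CPM in all 12 libraries. For 7 B cell markers it was 145.2 against at most 55.6 in the other 5 and 29.1 to 70.6 in wt, with Pax5 and Ebf1 under 1 CPM in all 12. The dendritic cell sum (9 markers) was 344 CPM in KO 4, at most 286 in the other 5 and 192 to 307 in wt, with Siglech under 1 CPM in all 12. The neutrophil sum (7 markers) was 7.29 to 1297 CPM in wt, 9.95 to 1262 in KO-labelled libraries and 14.2 in KO 4. The erythroid sum (7 markers) was 91.8 to 143 CPM in wt, 73.1 to 149 in KO-labelled libraries and 99.7 in KO 4, and Hba-a1 was at 0 in all 12. The summed level of megakaryocyte markers moved with genotype, though not each marker did. The sum of 6 was 1018 to 1376 CPM in wt and 453 to 782 in KO-labelled libraries, with no overlap and none of the 6 under 1 CPM in all libraries. Of these 1 was called lower, Itga2b (547 ± 123 CPM in wt and 268 ± 99.7 in KO-labelled libraries, edgeR adjusted p = 0.0247). Pf4 (276 and 131 CPM) and Vwf (266 and 139) did not pass (edgeR adjusted p = 0.422 and 0.304), nor did Gp1bb (19.6 and 9.03). The means of Gp9 (51.4 and 52.0 CPM) and Ppbp (10.7 and 12.3) were not lower in KO-labelled libraries. Their log2 fold changes were -0.083 and -0.15, and -0.28 and -0.61 without KO 4. The part of these traits in the results was not tested, and each member's fold change is given with and without KO 4. In bulk RNA, fewer cells of a type and less RNA per cell cannot be told apart. Nor can a listed gene transcribed in the LT-HSCs themselves be told apart from one transcribed in other cells.

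Since the sensors are known as interferon targets, the letters of the ISRE core were searched in the RefSeq promoter windows of GRCm38.p6, which run from 250 bases before to 50 bases after a transcription start. The motif was GAAA, any 2 bases, GAAA, or on the other strand TTTC, any 2 bases, TTTC. It was present in 3.44% of 32851 windows of the same length. Windows were found for 6 of the 8 members, and Dhx58 and Zbp1 had none in the table. Ddx60, Ddx58, Eif2ak2 and Ifih1 held the motif, and neither Mavs nor any of the 3 Adar windows did. Only exact letters were searched, so near matches were not counted. The third Adar window, for example, holds gaaagtgaac, which departs from the motif in its last base. Ddx60 held 2 copies, at -53 to -44 and -19 to -10 relative to the first transcribed base, which is counted as 0. The stretches that carry the motif are shown with its letters in capitals, each on the strand of its gene and 5′ to 3′. Mavs, the adaptor, is shown as the member with a single window and no match. Ifih1 is cut to the bases around its match, from 20 to 49, and the others run from -100 to 29.
Ddx60 (GRCm38.p6, chr8:61927987-61928116, + strand): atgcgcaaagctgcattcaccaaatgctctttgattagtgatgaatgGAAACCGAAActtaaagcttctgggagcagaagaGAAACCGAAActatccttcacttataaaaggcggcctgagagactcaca
Ddx58 (chr4:40239796-40239925, - strand): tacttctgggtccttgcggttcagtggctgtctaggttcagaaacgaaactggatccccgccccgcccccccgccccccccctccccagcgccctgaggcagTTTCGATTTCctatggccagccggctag
Eif2ak2 (chr17:78882543-78882672, - strand): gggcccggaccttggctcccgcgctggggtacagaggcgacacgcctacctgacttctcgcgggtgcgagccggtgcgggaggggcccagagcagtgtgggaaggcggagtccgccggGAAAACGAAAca
Ifih1 (chr2:62646206-62646235, - strand): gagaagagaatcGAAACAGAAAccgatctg
Mavs (chr2:131233963-131234092, + strand): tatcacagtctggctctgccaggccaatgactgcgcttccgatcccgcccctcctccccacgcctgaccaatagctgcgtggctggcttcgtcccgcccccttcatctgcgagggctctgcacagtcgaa
The gamma-activated site, searched as TTC, any 3 bases, GAA, which reads the same on both strands and is an element of the response to interferon gamma, was present in 8.3% of the windows. Among the members it was found in Eif2ak2 at -178 to -170 and in the third Adar window at 22 to 30. A match is a description of letters and was not tested as a binding site.

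**Figure D1:**
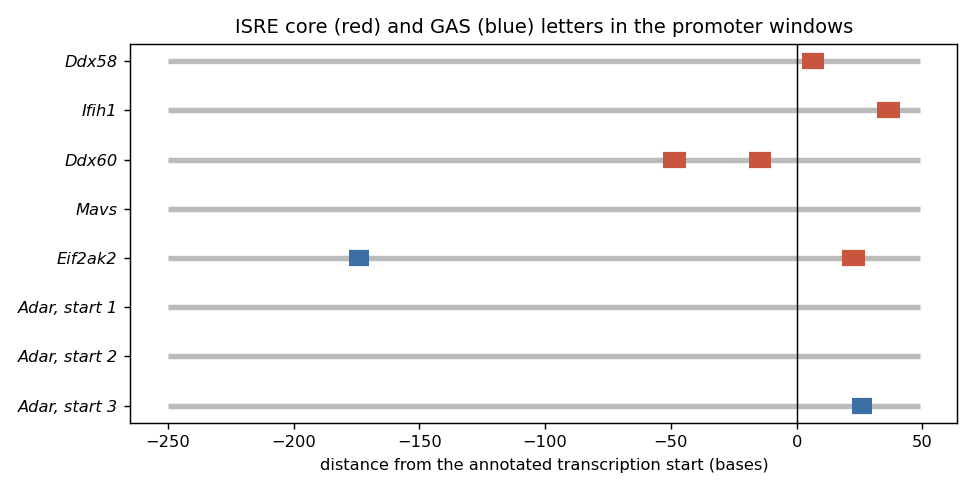
Positions of the ISRE core (red) and of the gamma-activated site (blue) in the promoter windows of 6 members; the horizontal axis is the distance from the annotated transcription start in bases, and grey bars mark the 300 bases searched. Ddx60 carries 2 ISRE cores before its start, and Mavs carries neither motif.

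The comparison between genotypes asked whether the sensor transcripts of KO-labelled LT-HSCs differ from those of wt. Zbp1 and Dhx58 were lower in KO-labelled libraries, Zbp1 by 3.92-fold and Dhx58 by 1.76-fold. The megakaryocyte marker sum was lower in the same libraries, and its part in these differences was not tested. The other 6 members did not pass the test. All 8 fold changes lay below 0, as did those of 50.9% of all genes tested. Fold changes set KO-labelled libraries over wt and are on the log2 scale, from edgeR's quasi-likelihood test with a term for name set. With an adjusted p under 0.05, 2 of the 8 members were lower and 0 higher, where 0.432% of all tested genes were lower and 0.00758% higher. At an unadjusted p under 0.05, 6 of the 8 members were lower, against 2.66% of tested genes. The median log2 fold change was -0.73 over the members and -0.0060 over all genes tested. Without KO 4 the members' median was -0.58, and 1 member, Zbp1, passed (0.561% of genes were lower in that fit). All 8 fold changes lay below 0 there too, as did those of 47.5% of genes. Of the 12 fits that left out 1 library, 6 called 0 members: those without wt 1, wt 6, KO 2, KO 3, KO 5 or KO 6. The fit with no term for name set also called 0. DESeq2 called 3 members lower, Zbp1, Dhx58 and Ddx60 (0.747% of its genes), and limma-voom 5, with Ddx58 and Adar in addition (1.32%). All 3 KO-labelled libraries lay below all 3 wt libraries within both name sets for 4 members, Dhx58, Ddx60, Eif2ak2 and Zbp1. This arrangement was found in 0.963% of tested genes. Taken alone, VD showed it for 7 members (13.2% of genes, each but Mavs) and ZL for these 4 (2.34%). Over all 12 libraries at once the groups were separate for 3 members, Dhx58, Ddx60 and Zbp1 (0.356%).

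**Figure D2:**
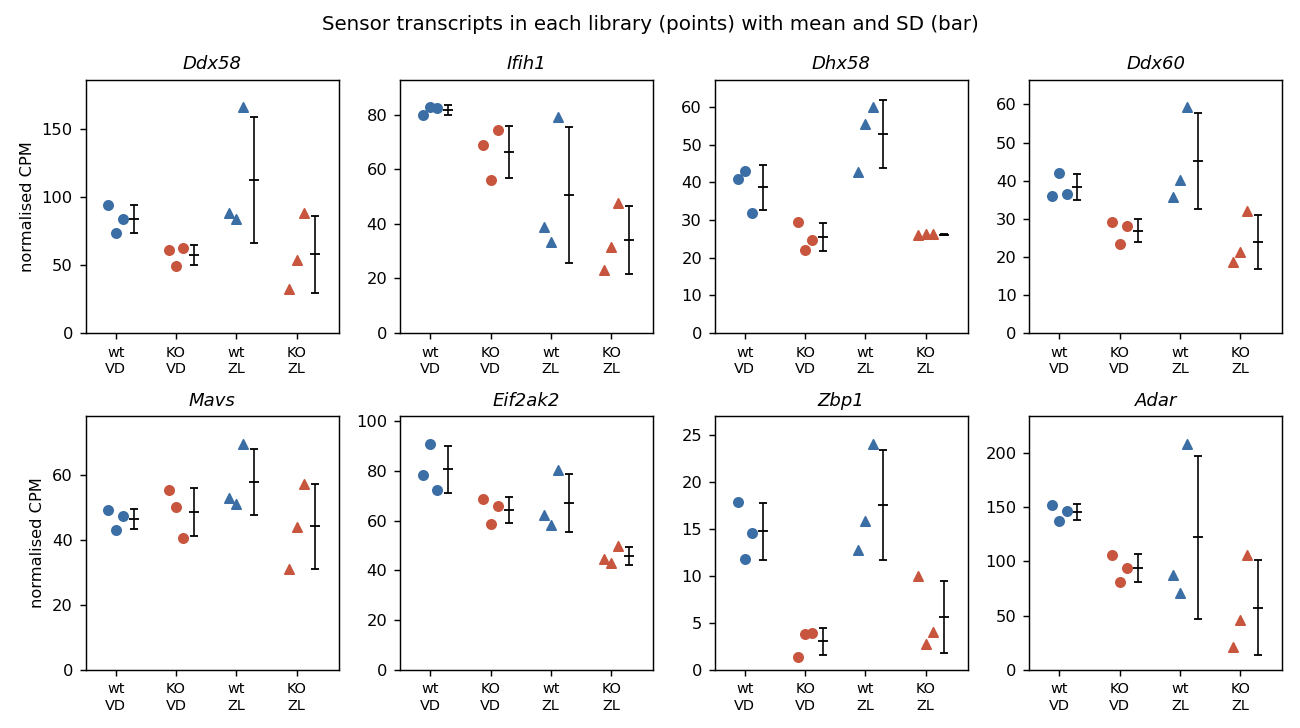
Normalised CPM of each member (vertical axis, one panel per gene) in the 3 libraries of each genotype and name set; blue marks wt, red KO-labelled libraries, circles VD and triangles ZL, with mean and SD beside the points. The red points of Zbp1, Dhx58 and Ddx60 lie below every blue point, and those of Mavs do not.

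Among the helicases, Ddx58 lies on chromosome 4 from 40203773 to 40239828 (GRCm38, minus strand). RIG-I, its product, detects short double-stranded RNA with a 5′ triphosphate. Its level ranged from 73.3 to 166.0 CPM in wt (median 85.8) and from 32.3 to 88.0 in KO-labelled libraries (median 57.0). The KO-labelled VD libraries, at 49.0 to 62.1 CPM, all lay below the VD wt libraries, at 73.3 to 94.1. In ZL, KO 6 at 88.04 CPM stood just above wt 4 at 87.98 and wt 5 at 83.4, so the groups overlapped. With edgeR the log2 fold change was -0.75 (SE 0.24, adjusted p = 0.521, n = 6 each), and -0.56 without KO 4. Ddx58 did not pass in any of the 12 fits that left out 1 library, with an adjusted p from 0.248 to 0.967.

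Ifih1 lies on chromosome 2 from 62595798 to 62646255 (minus strand), and its product MDA5 recognises long double-stranded RNA. In the VD set the 3 wt libraries held 79.8, 82.9 and 82.5 CPM, and KO-labelled libraries held 68.9, 55.9 and 74.4. All 3 of the latter lay below the former. The ZL libraries were lower and more spread, at 39.0, 33.4 and 79.1 CPM in wt and 23.0, 31.5 and 47.8 in KO-labelled libraries, and there the groups overlapped. Over all 12 libraries the difference was -0.43 on the log2 scale (SE 0.23, 95% interval -0.92 to 0.06, edgeR adjusted p = 0.945). It was -0.28 without KO 4 and -0.20 without wt 6.

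Dhx58 lies on chromosome 11 from 100694884 to 100704271 (minus strand). LGP2, the protein it encodes, lacks the signalling domains of RIG-I and MDA5 and modulates their activity. It stood at 40.9, 43.1 and 32.0 CPM in the VD wt libraries and at 29.5, 22.2 and 24.6 in the KO-labelled VD libraries. In ZL the wt libraries held 42.7, 55.6 and 60.1 CPM, and KO-labelled libraries held 25.93, 26.21 and 26.19. The 6 KO-labelled libraries lay below all 6 wt libraries, and the 3 in ZL had an SD of 0.159 CPM. Dhx58 fell with a log2 fold change of -0.81 (SE 0.16, edgeR adjusted p = 0.0398). This call was close to the threshold. It held in 3 of the 12 fits that left out 1 library, those without wt 3, KO 1 or wt 4. It was lost without wt 1, wt 2, wt 5, wt 6, KO 2, KO 3, KO 4, KO 5 or KO 6, with an adjusted p up to 0.142, while the log2 fold change stayed between -0.89 and -0.74 (-0.75 without KO 4). With all 12 libraries edgeR also lost the call under other settings. The adjusted p was 0.059 with upper quartile factors, 0.0605 with Rn45s left out and 0.0612 with a replicate block. It was 0.135 with no filter on low counts and 0.423 with no name set term. DESeq2 and limma-voom called Dhx58 lower (adjusted p = 0.00012 and 0.00615). An antisense gene, Dhx58os, shares 141 exon bases (4.31%) with Dhx58 and has no row in the table, and without a stated strand setting its reads cannot be told apart.

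Ddx60 lies on chromosome 8 from 61928087 to 62038244 (plus strand) and encodes a large helicase reported to assist RIG-I signalling. It is the member with 2 ISRE cores in the stretch shown above. Levels ranged from 35.8 to 59.4 CPM in wt (median 38.3) and from 18.5 to 32.0 in KO-labelled libraries (median 25.7), with no overlap between the groups. The log2 fold change was -0.71 (SE 0.19), which did not pass (edgeR adjusted p = 0.242), and it was -0.59 without KO 4. DESeq2 and limma-voom put it past the threshold, with adjusted p-values of 0.0234 and 0.0261. So did edgeR when offsets removed the trend of each library with exon length (0.0488). Over all alternatives its adjusted p ran from 0.0234 to 1.

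Mavs, the adaptor on which RIG-I and MDA5 converge, lies on chromosome 2 from 131234063 to 131248025 (plus strand). Its level was 52.2 ± 9.23 CPM in wt and 46.5 ± 9.85 in KO-labelled libraries (SD, n = 6 each). In VD the wt libraries held 49.1, 43.0 and 47.5 CPM and KO-labelled libraries 55.3, 50.2 and 40.6, so the order was mixed. The genotypes differed by -0.16 on the log2 scale (SE 0.18, 95% interval -0.55 to 0.22, edgeR adjusted p = 0.945). Without KO 4, which held the lowest value (31.2 CPM), it was -0.012, and without wt 6 it was -0.069. The VD set alone gave a fold change above 0, at 0.11.

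Eif2ak2 lies on chromosome 17 from 78852564 to 78882573 (minus strand) and encodes PKR, the kinase that phosphorylates the translation factor eIF2 alpha. The VD wt libraries held 78.6, 91.1 and 72.3 CPM, and the KO-labelled VD libraries held 68.7, 58.5 and 65.8. In ZL the values were 62.4, 58.4 and 80.6 CPM in wt and 44.5, 43.0 and 49.9 in KO-labelled libraries. The groups did not overlap within either set, and the difference was small, with a log2 fold change of -0.44 (SE 0.14, 95% interval -0.73 to -0.14), and -0.38 without KO 4. It did not pass (edgeR adjusted p = 0.51), nor did it under any alternative run, among which the lowest adjusted p was 0.135.

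Zbp1 showed the largest difference of the 8. The gene lies on chromosome 2 from 173206612 to 173218923 (minus strand), and its product binds left-handed Z-form RNA and DNA. The VD wt libraries held 17.8, 11.8 and 14.6 CPM (263, 105 and 167 counts). The KO-labelled VD libraries held 1.36, 3.78 and 3.93 CPM (17, 31 and 42 counts). In ZL the wt libraries held 12.8, 15.8 and 24.1 CPM and KO-labelled libraries 9.95, 2.79 and 4.02. All 6 KO-labelled libraries lay below all 6 wt libraries, and KO 4, at 9.95 CPM, lay nearest to wt. Zbp1 fell with a log2 fold change of -1.97 (SE 0.35, 95% interval -2.73 to -1.21, edgeR adjusted p = 0.0218). Without KO 4 the difference was larger, at -2.29 or 4.90-fold (edgeR adjusted p = 0.00118). The call was lost without wt 1, wt 3, wt 6, KO 2, KO 3, KO 5 or KO 6, with an adjusted p up to 0.0661. In those and the other fits that left out 1 library the log2 fold change stayed between -2.29 and -1.78.

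Adar lies on chromosome 3 from 89715022 to 89753446 (plus strand). It encodes an RNA editing enzyme with a constitutive short form and an interferon-inducible long form that carries a Z-form binding domain, and the count over the whole gene does not separate them. The VD wt libraries held 152, 137 and 147 CPM, and the KO-labelled VD libraries held 106.4, 81.4 and 94.0, all below wt. In ZL the spread was wide, at 87.4, 70.5 and 208.9 CPM in wt and 20.7, 46.0 and 105.5 in KO-labelled libraries, so that the groups overlapped. Over all 12 libraries the log2 fold change was -0.86 (SE 0.34) and did not pass (edgeR adjusted p = 0.838). It was -0.62 without KO 4 and -0.55 without wt 6. In VD alone it was smaller, at -0.59, with a much smaller error (SE 0.10), and passed (edgeR adjusted p = 0.00803, n = 3 each). With KO 4, KO 6 and wt 6 left out together it was -0.64 (edgeR adjusted p = 0.0108). That fit called 3 members lower, Zbp1, Adar and Ddx58, and 0.666% of its genes. Chrnb2, a gene on the opposite strand, shares 1365 exon bases (16.8%) with Adar, and had 396 counts over the 12 libraries against 22553 for Adar.

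The 2 name sets were also fitted alone. In VD, 7 of the 8 members had a log2 fold change below 0, and Zbp1 (-2.26, SE 0.38, edgeR adjusted p = 0.00652) and Adar were lower, where 0.76% of 12903 tested genes were lower. In the ZL set all 8 lay below 0, from -0.39 for Mavs to -1.66 for Zbp1 (SE 0.52). None of the 8 passed there with edgeR, and neither did any of the 13859 genes tested, although Zbp1, Dhx58 and Ddx60 had unadjusted p-values of 0.0127, 0.00505 and 0.0261. At an unadjusted p under 0.05, 1.05% of genes were lower in ZL. Standard errors of the members ran from 0.10 (Adar) to 0.38 (Zbp1) in VD and from 0.26 (Eif2ak2) to 0.62 (Adar) in ZL. The fold change was lower in ZL than in VD for 7 members and higher for Zbp1. For this count, and for the counts of members below 0 in each set, no share over all genes was taken. They therefore have no reference. The difference of the genotype effect between the sets did not pass for any member (edgeR interaction term, adjusted p = 0.975 for each). It did not pass for any of the 13184 genes either, and at an unadjusted p under 0.05 it was found for 0 members and 1.38% of genes. Its size ran from -0.46 for Adar (95% interval -1.95 to 1.03) to 0.63 for Zbp1 (-0.87 to 2.13). Without KO 4 the difference for Zbp1 was -0.083.

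**Figure D3:**
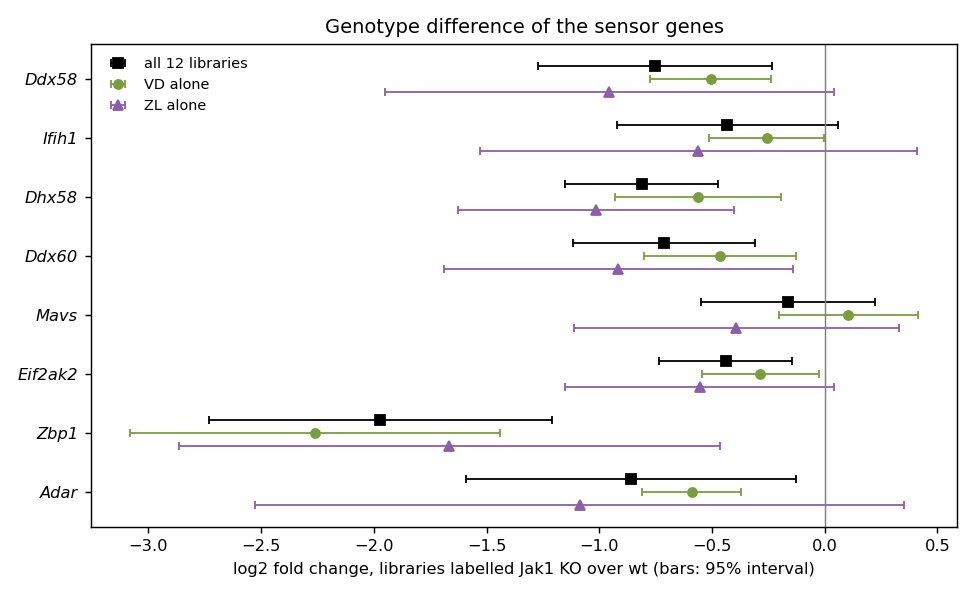
Log2 fold change of KO-labelled libraries over wt (horizontal axis) with its 95% interval for each member, over all 12 libraries (black), in VD alone (green) and in ZL alone (purple). Zbp1 lies farthest from 0 at -1.97, the Mavs intervals span 0 in all 3 fits, and the ZL interval is the widest for each member.

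Set against the wt mean of their own name set, KO-labelled libraries kept unlike shares of the 8 transcripts. For Zbp1 the shares were 9.22%, 25.7% and 26.7% in VD and 56.6%, 15.9% and 22.9% in ZL. For Dhx58 they lay between 57.4% and 76.2% in VD and at 49.1%, 49.6% and 49.6% in ZL. KO 4 held the highest share of Zbp1 and the lowest share of Dhx58, Ddx58 (28.7%), Ifih1 (45.5%), Ddx60 (41.1%), Mavs (53.9%) and Adar (16.9%). KO 6, the KO-labelled ZL library with the opposite length trend, held 86.3% of the wt level of Adar and 94.8% of that of Ifih1. The exon length of Zbp1 is 3529 bases, and those of Adar and Ifih1 are 8118 and 8165. Dhx58 (3272 bases) and Mavs (3345 bases) are shorter than Zbp1, and their share too was lowest in KO 4. The part of length in these shares was not tested. With the offset for length the log2 fold changes were -1.94 for Zbp1, -0.80 for Dhx58, -0.81 for Adar and -0.15 for Mavs. Without it they were -1.97, -0.81, -0.86 and -0.16. For Ddx58, Ddx60, Ifih1 and Eif2ak2 they were -0.68, -0.62, -0.34 and -0.34 with the offset, and -0.75, -0.71, -0.43 and -0.44 without it.

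**Figure D4:**
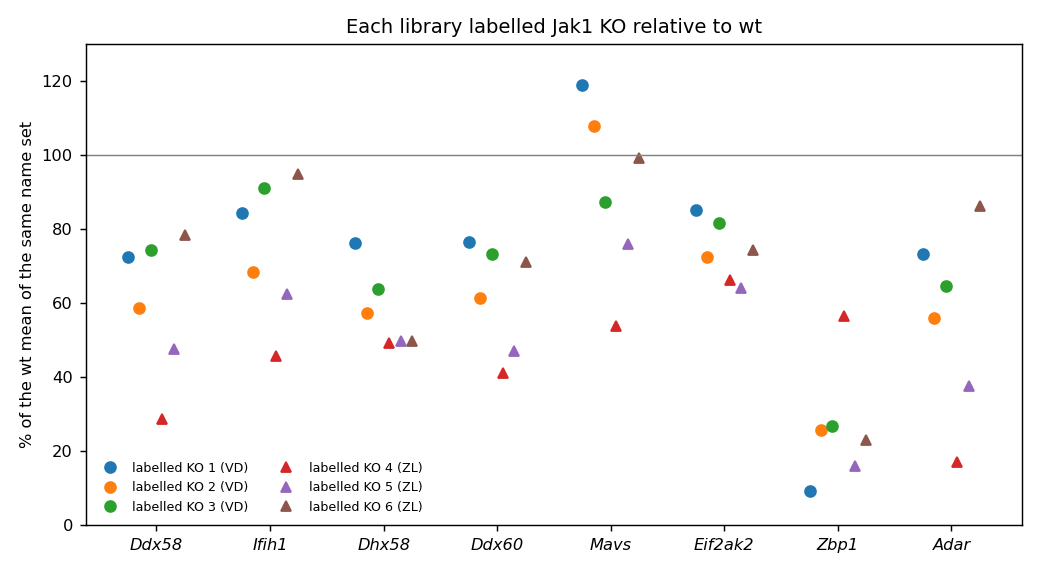
Level of each member in the 6 KO-labelled libraries as a percentage of the wt mean of the same name set (vertical axis; the line marks 100%), with circles for VD and triangles for ZL. Zbp1 points lie at 9.22% to 56.6%, and KO 4 is the highest of them while it is the lowest for 6 of the other 7 members.

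Levels of different members were compared per length, as normalised CPM per kilobase of exon (all annotated exons of the gene merged). In wt the order was Adar at 16.5 ± 6.12, Mavs at 15.6 ± 2.76, Eif2ak2 at 14.5 ± 2.38, Dhx58 at 14.0 ± 3.16 and Ddx58 at 13.9 ± 4.82 (SD, n = 6). Neighbours among these 5 differed by less than their spread. Ifih1 followed at 8.10 ± 2.85, and Ddx60 at 4.80 ± 1.04 and Zbp1 at 4.58 ± 1.26 were lowest and did not differ beyond their spread. Among 13035 tested genes with a length, the wt level per kilobase placed Adar at the 72.2 percentile and Zbp1 at the 35.7 percentile. In KO-labelled libraries, Mavs was highest at 13.9 ± 2.95, Dhx58 stood at 7.88 ± 0.727 and Zbp1 at 1.22 ± 0.834. The choice of length matters for the upper 5. Per kilobase of the longest transcript the wt order began with Ddx58 (25.3) and Adar (22.7), while Ifih1 (12.1), Ddx60 (6.38) and Zbp1 (4.86) remained the lowest 3.

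To describe how the members varied together, log2 CPM was centred within name set and Pearson's r was taken over the 12 libraries, which share depth and length trends. Ddx58 and Adar were closest (r = 0.98, and 0.93 without wt 6 and KO 4). Ddx60 and Eif2ak2 had r = 0.95 (0.93 without these 2 libraries), and Dhx58 and Eif2ak2 r = 0.92 (0.89). Mavs and Zbp1 were least alike (0.07, and -0.14 without them). These values also hold any genotype difference that the genes of a pair share. Centred within genotype as well, r was 0.98 for Ddx58 and Adar, 0.82 for Ddx60 and Eif2ak2, 0.65 for Dhx58 and Eif2ak2, and -0.41 for Mavs and Zbp1. Of 12766 genes with a mean of at least 1 CPM, those most like Dhx58 were Ifit1 (r = 0.98), H2-T10 (0.97) and Oasl2 (0.95). Ifit1 and Oasl2 are interferon-induced antiviral genes. Zbp1 was most like Ufsp1 (0.95), Rtp4 (0.94) and Tgtp1 (0.94), and Ddx60 most like Cnr2 (0.98), Itgb2 (0.96) and Oas3 (0.95). Tgtp1 has a near-identical paralog that may share its reads. Eif2ak2 was most like Sp100 (0.97), Ddx60 and Shkbp1. Adar was most like Mov10 (0.99), Stat2 (0.99) and Vcl (0.99), Ddx58 like Zeb2, Adar and Usp40 (0.98 each), Ifih1 like Rbm27 (0.99), Rbm10 and Lrrk1, and Mavs like Polr3f (0.97), Akap10 and Pigo. When log2 CPM was centred within genotype as well, the 3 nearest genes were others for 7 members, and Mavs kept 2 of its 3. Without KO 4 and wt 6, r of the genes named lay between 0.84 (Mavs and Pigo) and 0.97 (Dhx58 and Ifit1).

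The genes around the sensors were read from 9 lists with 140 distinct genes, of which 134 were tested. In these 131 did not pass, 3 were lower and 0 were higher. Their median log2 fold change was -0.09, and 0.0043 without KO 4, where 3 were lower as well. Of 6 genes from the interferon receptor to its transcription factors 1 was lower, Irf9 (123 ± 36.5 CPM in wt and 47.0 ± 7.42 in KO-labelled libraries, log2 fold change -1.35, SE 0.14, edgeR adjusted p = 0.00034). Stat2 did not pass (-0.68, SE 0.33, edgeR adjusted p = 0.945), and its fold change was -0.45 without KO 4. Among 21 adaptors, ligases and kinases downstream of RIG-I and MDA5, 1 was lower, the transcription factor Irf7 (28.1 ± 11.5 and 6.79 ± 3.00 CPM, 4.17-fold). Irf9 and Irf7 passed in all 12 fits that left out 1 library.

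Among 16 regulators of MAVS, 1 was lower, Usp18, the protease that removes ISG15 and dampens interferon receptor signalling (30.5 ± 15.6 and 12.9 ± 5.38 CPM, edgeR adjusted p = 0.0284). Its call was lost without wt 1, wt 5, wt 6, KO 1, KO 2, KO 5 or KO 6 (adjusted p up to 0.105). In the other 6 lists edgeR called 0 genes and DESeq2 0. These were 7 cell death partners of ZBP1 (0 with an unadjusted p under 0.05), 17 genes of the PKR and eIF2 alpha pathway (1) and 13 of RNA editing and double-stranded RNA binding (0). The others were 16 of cytosolic DNA sensing (0), 12 of endosomal sensing (2) and 28 DEAD and DEAH helicase relatives (1). Mlkl, the executioner of necroptosis downstream of ZBP1, had means of 57.7 CPM in wt and 51.7 in KO-labelled libraries, and the caspase gene Casp6 of 43.4 and 54.5 (log2 fold change 0.22, and 0.021 without KO 4). Tmem173 (STING), the adaptor of DNA sensing, stood at 79.8 and 94.4 CPM, and Trex1, the exonuclease that degrades cytosolic DNA, at 26.2 and 36.2 (log2 fold change 0.41, and 0.19 without KO 4). Trib3, a stress gene downstream of eIF2 alpha phosphorylation, stood at 18.7 and 28.3 CPM (log2 fold change 0.70, edgeR adjusted p = 0.838). Ppp1r15b, a subunit of an eIF2 alpha phosphatase, stood at 131 and 101 CPM (-0.39 on the log2 scale, and -0.16 without KO 4). In the editing and double-stranded RNA list the smallest p-values were those of Dicer1, which cuts double-stranded RNA (84.5 and 78.6 CPM, -0.28 on the log2 scale and -0.13 without KO 4), and Adat2, a tRNA editing enzyme (7.86 and 9.42 CPM). In the endosomal list they were those of Hsp90b1, a chaperone of Toll-like receptors (724 and 562 CPM), and the protease Lgmn (2.13 and 1.32 CPM). Of the helicase relatives 27 of 28 had a fold change below 0, with a median of -0.15, where 50.9% of all genes did. Without KO 4 it was 18 of 28, with a median of -0.027, where 47.5% of all genes did. Ddx24 had the smallest p of that list, with 178 CPM in wt and 139 in KO-labelled libraries (edgeR adjusted p = 0.818), and Dhx29 followed with 43.2 and 30.4 (-0.51 on the log2 scale and -0.34 without KO 4).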

How the data were processed

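The authors deposited a table of read counts per gene, in whole numbers and without normalisation, with 1 column for each of 12 libraries. Per the submitters' processing notes, STAR 2.3.0e, featureCounts and Subread were used with the mm10 build. The sources used here do not give the annotation or strand setting. Columns were matched to samples by their descriptions and groups came from the titles.

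Counts were fitted in R 4.3.3 with edgeR 4.0.16 (filterByExpr on genotype, TMM, a term for name set, glmQLFit and glmQLFTest). Benjamini-Hochberg adjustment covered the 13184 genes tested, and the threshold was 0.05. SE was derived from the F statistic. Normalised CPM uses TMM-scaled library sizes. Log2 CPM used a prior count of 2. Values after ± are SDs. Exon lengths and positions came from GENCODE M21 on GRCm38, the assembly of mm10, which matched 23034 of the 23472 symbols, and promoters came from RefSeq (GRCm38.p6).

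The members and lists were chosen with earlier results of these data known. All 8 members were named. From each of the 9 lists the genes past the threshold were named, up to 4, or the 2 with the smallest p where none passed, with Stat2, Irf9 and Jak1. A gene of the interferon receptor list is not reported here, and the list counts leave it out. On simulated counts of 12930 genes, edgeR recovered 49% of genes changed by 1 and 86% of genes changed by 2 (log2) in the comparison of 6 against 6, with 3.57% false calls. For DESeq2 the shares recovered were 64% and 91%, and 12.4% of its calls were false. For limma-voom they were 49% and 85%, and 4.96% were false. Simulated counts were drawn gene by gene, with the same dispersion in all libraries and no trend with exon length. The shares may therefore not hold for libraries that differ in these traits, as those of ZL do.

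The alternatives were DESeq2 1.42.0 size factors and Wald test, upper quartile factors, other filters, limma-voom (limma 3.58.1), robust dispersion, no set term, a replicate block, fits within 1 name set, leaving out each library, other thresholds, a length offset, Rn45s left out, and 3 ZL libraries left out.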

Additional observations from a re-analysis of the deposited data

Results flagged for a closer look

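In 4 of 16 groups of 6 libraries (8 members in each genotype) 1 library lay far from the others, measured by its gap to the next over the group's range. Chance flags about 1 group in 20 where the values of a group are alike in spread. The groups here share their libraries and hold both name sets, so the count of flags cannot be read against that rate. Library wt 6 held 166.0 CPM of Ddx58 against 73.3 to 94.1 in the other wt libraries, 59.4 CPM of Ddx60 against 35.8 to 42.1, and 69.8 CPM of Mavs against 43.0 to 52.9. Library KO 4 held 9.95 CPM of Zbp1 against 1.36 to 4.02 in the other KO-labelled libraries.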

How the results depend on the processing

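Over 28 alternatives each, Zbp1 kept its direction in all and its call in 19, and Dhx58 its direction in all and its call in 10. The count of members past the threshold, 2 with all 12 libraries, was 1 with upper quartile factors, with no filter on low counts, with Rn45s left out and when a log2 change of 1 or more was also required. It was 0 with no name set term and in ZL alone, 5 with limma-voom, and 0 to 2 when 1 library was left out. The count of genes past the threshold, 58, was 126 with DESeq2's test (77.8% of them lower, against 98.3%), 220 with limma-voom (79.1% lower), 14 with no name set term, 149 in VD alone, 0 in ZL alone, 96 without wt 6, KO 4 and KO 6, and 39 to 77 when 1 library was left out. With replicate number as a block 1 member passed, Zbp1, and 72 genes. The block moved the edgeR adjusted p of Ddx58, Adar and Ddx60 from 0.521, 0.838 and 0.242 to 0.0663, 0.0888 and 0.0903. For Dhx58 and Zbp1 it rose from 0.0398 and 0.0218 to 0.0612 and 0.0261. The deviations of same-numbered libraries from their groups correlated at 0.06 to 0.68, and 3 of 6 wt libraries correlated best with their own number. These values do not settle whether the numbers pair the libraries, and the main fit left them unpaired. For Mavs the log2 fold change turned above 0 in VD alone (0.11) and without those 3 libraries (0.011). The difference between name sets changed sign for Ifih1 and Adar without wt 6, and for Zbp1 without KO 4. With 1 library left out it ran from -0.59 to 0.22 for Ifih1, -1.24 to 0.17 for Adar and -0.083 to 0.96 for Zbp1. The causes were not tested. Depth limits Zbp1 most, with 17 counts in its lowest library.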
